A study of Sus scrofa with 60 samples.

Results

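The transcripts of FOS, EGR1, MYC and GADD45B were followed in porcine liver from the fetus to the adult pig. All probe sets to which the platform annotation gives 1 of these 4 symbols and no other were taken, which gave 4 of 6765 named genes and 7 of the 23999 probe sets that are no control. FOS and MYC were read by 1 probe set each, EGR1 by 3 and GADD45B by 2. Where a gene had several, the probe set with the highest mean over all arrays stood for it, and the others are called the second and the third in that order. The animals were offspring of German Landrace gilts that received an adequate protein (AP) diet during gestation, a condition that all 60 animals share. There were 15 fetuses at 94 days post conceptionem (dpc), and 15, 14 and 16 offspring at 1, 28 and 188 days post natum (dpn), each with its own array. The fetuses came from a separate experiment with Caesarean section of anaesthetised sows and were killed by intravenous injection. The newborn piglets were killed under an injected sedative and anaesthetic, whereas both older stages were fasted overnight, stunned electrically and bled. Fetuses and newborn piglets were taken from the light and heavy ends of their litters, the older pigs from near the middle of the growth range. Stage therefore cannot be told apart from the mode of sampling or from this selection. Litter, sex, weight and the round of Caesarean sections are not in the labels, so animals were treated as independent, although sibs were among them, and p-values may be too small for that reason.

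Immediate early genes are transcribed within minutes of a growth, stress or hormone signal, from factors already present in the cell and without new protein synthesis. FOS pairs with JUN proteins to form the transcription factor AP-1, EGR1 is a zinc finger transcription factor switched on by the ERK kinases and serum response factor, and MYC drives genes of ribosome formation and growth. GADD45B, a small stress sensor of the growth arrest and DNA damage family, binds stress kinase and cell cycle proteins. In the liver these genes are best known for their early rise after partial hepatectomy, and their transcripts are short-lived.

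Levels are given as log2(intensity + 16) and changes as later minus earlier stage on that scale, which understates changes of dim transcripts. The Affymetrix Tag controls, taken as background, had stage means of up to 6.29. Hepatocyte markers such as ALB and APOA1 were all clearly measured, with 11 of 11 above the array median in at least 50% of the animals of every stage. Arrays of the same stage correlated with r between 0.904 and 0.965 across probe sets. The array median intensity averaged 169, 148, 116 and 111 in the order of age, under a common scaling target, and centring each array on its median moved the median change of all probe sets by 0.17, 0.31 and 0.06 in the 3 periods. The periods were 1 dpn against 94 dpc (period I), 28 dpn against 1 dpn (period II) and 188 dpn against 28 dpn (period III). No stage between 94 dpc and 1 dpn was sampled, so late gestation and birth cannot be told apart in period I.

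From 94 dpc to 1 dpn EGR1 and MYC fell, and after birth the genes took separate courses. EGR1 was 6.69-fold lower and MYC 3.20-fold lower at 1 dpn than at 94 dpc, whereas FOS and GADD45B did not pass the test in period I. FOS, EGR1 and GADD45B then rose in period II. In period III only FOS of the 4 genes rose and only MYC fell. Read against all probe sets tested, 41.1% fell and 23.9% rose in period I, 28.5% rose and 39% fell in period II, and 15.5% rose and 24.1% fell in period III (limma, Benjamini-Hochberg adjusted p below 0.05), so calls of this kind were common on these arrays. With each array centred on its median the share of risers among the called was 52.7%, 65.9% and 51.1%, against 36.8%, 42.2% and 39.2% with the deposited scaling. A difference among the 4 stages was called for each of the 4 genes, as it was for 93.2% of all probe sets. In whole liver, fewer cells of a type and less transcript per cell cannot be told apart.

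**Figure D1:**
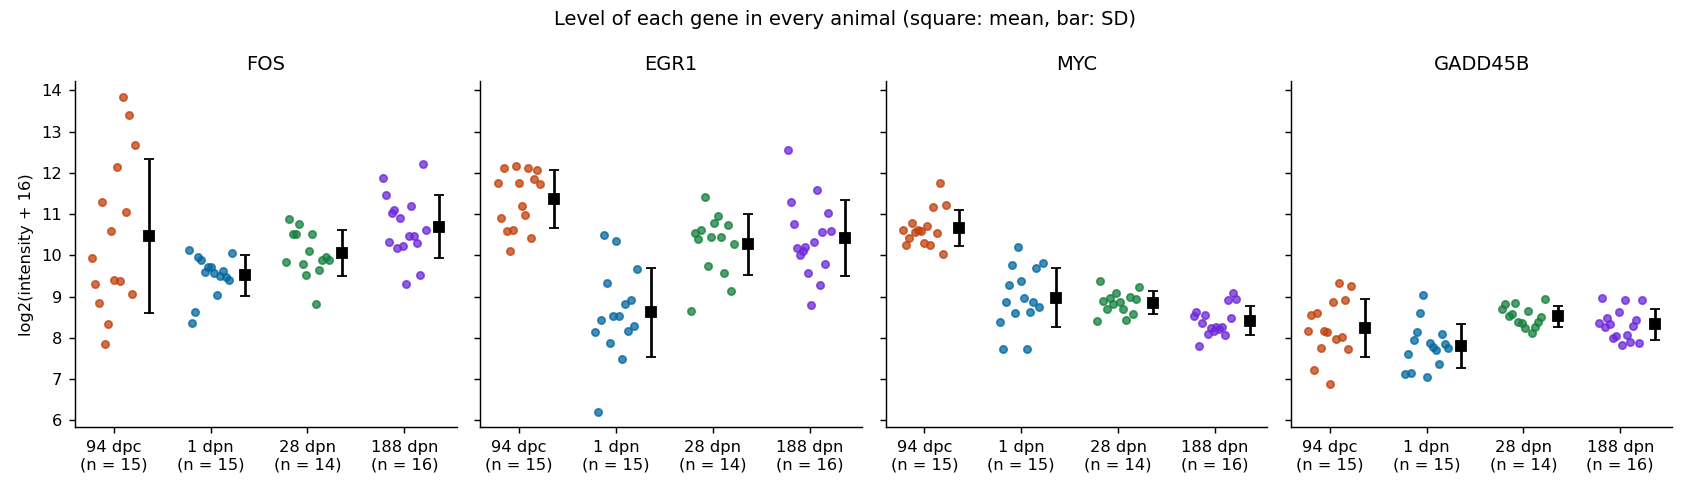
Level of FOS, EGR1, MYC and GADD45B, as log2(intensity + 16), in every animal of the 4 stages, with each point 1 animal and the square and bar giving mean and SD. The 15 fetuses spread over 7.84 to 13.84 for FOS, and for MYC they lie above every animal of 28 and 188 dpn.

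Of the 4 genes FOS had the largest SD among fetuses. Its lowest, median and highest levels were 7.84, 9.93 and 13.84 in the fetuses, 8.36, 9.61 and 10.12 in the newborn piglets, 8.81, 9.93 and 10.87 in the pigs of 28 dpn, and 9.32, 10.55 and 12.21 in those of 188 dpn. All stages overlapped, and the fetuses lay on both sides of the newborn piglets. Mean levels in the order of age were 10.47 ± 1.87, 9.51 ± 0.50, 10.05 ± 0.55 and 10.70 ± 0.77 (SD, n = 15, 15, 14 and 16). The difference of -0.96 ± 0.46 (SE) in period I did not pass the test (limma, adjusted p = 0.070). FOS rose by 0.53 ± 0.19 in period II (adjusted p = 0.013), where 5 of 14 animals of 28 dpn exceeded the highest newborn piglet. It rose by 0.65 ± 0.24 in period III (adjusted p = 0.027), with 7 of 16 animals of 188 dpn above the highest of 28 dpn.

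These FOS calls were sensitive to the model. A single fit over all 60 arrays, which lets the wide fetal spread enter every comparison, gave limma adjusted p = 0.024, 0.22 and 0.18 for periods I, II and III, within ranges over all alternatives of 0.0239 to 0.337, 0.000147 to 0.219 and 0.00854 to 0.177. Leaving out animal 10 of 28 dpn gave 0.051 in period III, and leaving out fetus 3, 5, 6 or 14 brought period I below the threshold, with 0.025 as the lowest adjusted p. The period II change was 0.85 with median centring. Ordered by mean, FOS ran from 1 dpn over 28 dpn and 94 dpc to 188 dpn. Of the neighbours in this order 28 dpn and 1 dpn differed, while 28 dpn and 94 dpc (-0.43 ± 0.49, adjusted p = 0.42) and 188 dpn and 94 dpc (0.23 ± 0.47, adjusted p = 0.66) did not pass the test. From 1 to 188 dpn the rise was 1.19 ± 0.22 (adjusted p = 1.8e-05), and 14 of 16 animals of 188 dpn lay above every newborn piglet, with 28.8% of all probe sets higher at 188 than at 1 dpn.

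The mean of EGR1 was highest in the fetus and lowest in the newborn piglet. The lowest, median and highest levels were 10.11, 11.74 and 12.16 in the fetuses, 6.21, 8.54 and 10.50 in the newborn piglets, 8.66, 10.45 and 11.42 in the pigs of 28 dpn, and 8.80, 10.26 and 12.55 in those of 188 dpn. At 1 dpn 13 of 15 piglets lay below the lowest fetus. Stage means were 11.36 ± 0.70 (SD, n = 15), 8.62 ± 1.08 (n = 15), 10.27 ± 0.75 (n = 14) and 10.42 ± 0.92 (n = 16) in the order of age. EGR1 fell by 2.74 ± 0.31 in period I (adjusted p = 4.4e-09) and rose by 1.65 ± 0.33 in period II (adjusted p = 5.1e-05). The difference in period III was 0.15 ± 0.29 (adjusted p = 0.72). The level at 188 dpn remained 0.94 ± 0.28 on the log2 scale below that at 94 dpc (adjusted p = 0.0025), and 53.4% of all probe sets were lower at 188 dpn than at 94 dpc. The second EGR1 probe set gave -1.61 ± 0.23 in this comparison (adjusted p = 1.3e-07) and the third 0.25 ± 0.28 (adjusted p = 0.40). Ordered by mean, EGR1 ran from 1 dpn over 28 and 188 dpn to 94 dpc, and of these neighbours 188 and 28 dpn did not pass.

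The 3 probe sets of EGR1 parted after birth. In period I the second EGR1 probe set fell by 1.12 ± 0.31 (adjusted p = 0.0022) and the third by 1.58 ± 0.32 (adjusted p = 6.5e-05). The third passed the filter in period I through the fetuses alone and in period II through the pigs of 28 dpn alone, so its direction there is no separate support. In period II the third rose by 1.95 ± 0.34 (adjusted p = 9.3e-06), as the brightest did, while the second fell by 0.86 ± 0.35 (adjusted p = 0.030). At 28 dpn, relative to 94 dpc, the second changed by -1.97 ± 0.24 and the brightest by -1.09 ± 0.25 (adjusted p = 9.1e-09 and 0.00026), where 51% of all probe sets were lower, whereas the third differed by 0.37 ± 0.21 (adjusted p = 0.11). Within each stage the 3 nevertheless ordered the animals alike, with r between 0.718 and 0.924. At 1 dpn only 3 of 15 piglets had the third probe set above the array median, and its lowest value there was 4.27, under the Tag background. The brightest probe sets of EGR1 and MYC carry the manufacturer's suffix for probes that may match more than a single transcript.

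**Figure D2:**
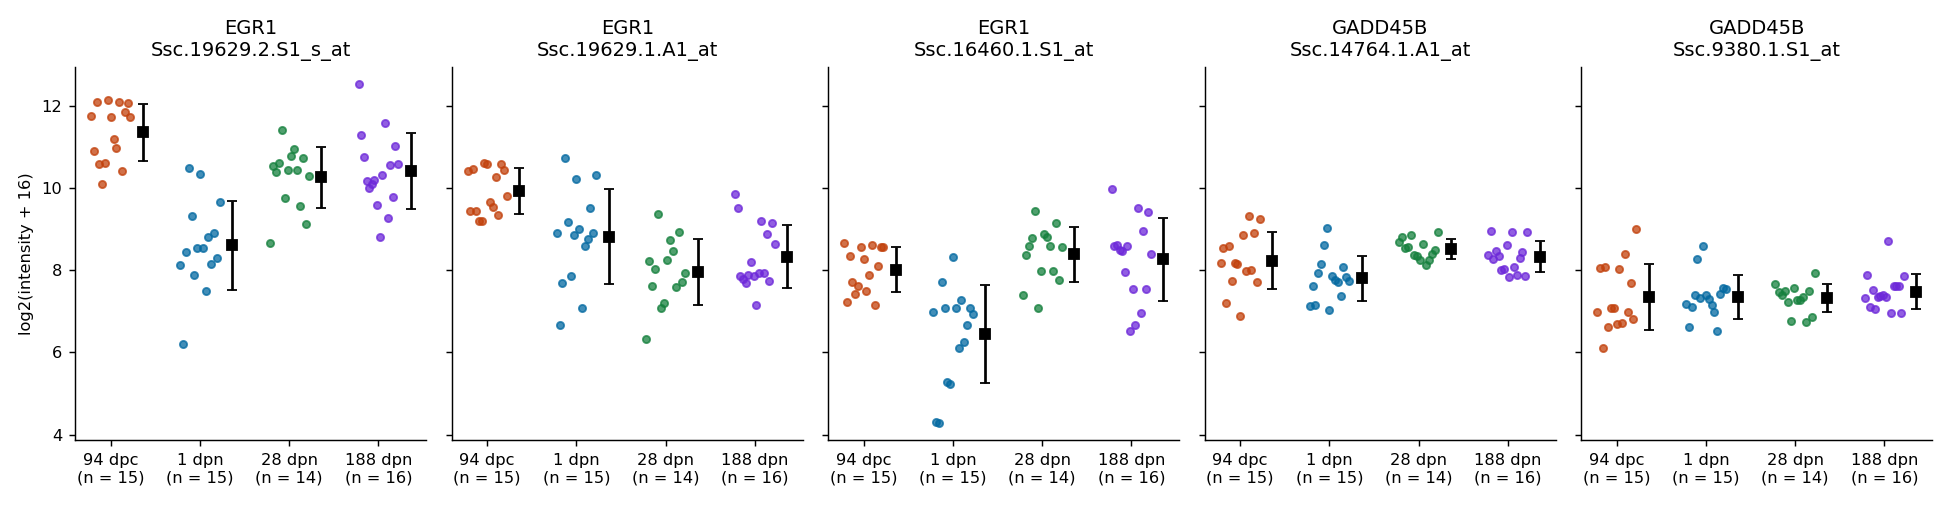
Level of the 3 EGR1 and 2 GADD45B probe sets in every animal, as log2(intensity + 16), with square and bar for mean and SD. From left to right are the brightest, the second and the third of EGR1 and both of GADD45B, and at 28 dpn, against 1 dpn, the mean of EGR1 is 10.27 against 8.62, 7.97 against 8.82 and 8.39 against 6.44.

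The controls for transcript integrity moved with stage as well. For actin, the log2 difference between the control probe sets at the 3' and 5' ends averaged 2.29 ± 0.34, 1.76 ± 0.31, 3.54 ± 0.46 and 4.01 ± 0.45 in the order of age (SD), and for GAPDH 0.99 ± 0.13, 0.38 ± 0.14, 0.77 ± 0.09 and 0.68 ± 0.10. The actin ratio was 1.138 to 2.226 at 1 dpn and 2.849 to 4.407 at 28 dpn, without overlap. In period II a fit with this ratio can therefore hardly separate it from stage. With the actin ratio as a covariate the period II changes of FOS, EGR1 and GADD45B were 0.87, 1.86 and 0.41 and none passed (limma, adjusted p = 0.20, 0.11 and 0.48). All 3 passed with the GAPDH ratio instead, a covariate chosen after the data were seen (0.92, 1.90 and 0.75, adjusted p = 0.040, 0.018 and 0.047). Over all alternatives, other probe sets included, the adjusted p of these changes ran from 0.000147 to 0.219 for FOS, from 3.31e-06 to 0.114 for EGR1 and from 6.33e-07 to 0.869 for GADD45B, the last value being that of the second GADD45B probe set. FOS in period III had an adjusted p of 0.054 with the actin ratio, within its range given above. The fall of EGR1 in period I passed with either ratio, with changes of -2.65 and -3.504 for actin and GAPDH, and so did that of MYC in period III. In period I the change of MYC was -1.44 with the actin ratio, which passed, and -1.45 with the GAPDH ratio, which did not (adjusted p = 0.057, over all alternatives 7.43e-13 to 0.0572). The GAPDH ratio was 0.8054 to 1.298 at 94 dpc and 0.1597 to 0.6622 at 1 dpn, without overlap. In period I a fit with the GAPDH ratio can therefore hardly separate it from stage. Whether either ratio had a part in the disagreement of the EGR1 probe sets was not tested.

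MYC fell from 94 dpc to 1 dpn and again from 28 to 188 dpn. Its lowest, median and highest levels were 10.04, 10.58 and 11.76 in the fetuses, 7.74, 8.88 and 10.21 in the newborn piglets, 8.41, 8.89 and 9.38 in the pigs of 28 dpn, and 7.81, 8.31 and 9.09 in those of 188 dpn. At 1 dpn 14 of 15 piglets lay below the lowest fetus. MYC fell by 1.68 ± 0.21 in period I (adjusted p = 2.3e-08) and by 0.44 ± 0.12 in period III (adjusted p = 0.0027), the means being 10.66 ± 0.44, 8.98 ± 0.72, 8.86 ± 0.28 and 8.42 ± 0.35 in the order of age (SD, n = 15, 15, 14 and 16). In period II the difference was -0.12 ± 0.20 (adjusted p = 0.60), and its sign turned to 0.19 with median centring and 0.01 with quantile normalization. Against 94 dpc the change was -1.80 ± 0.13 at 28 dpn and -2.24 ± 0.14 at 188 dpn, a 4.72-fold difference in the adult pig (adjusted p = 2.1e-13 and 3.0e-16). No animal of 28 or 188 dpn overlapped a fetus, which was also true of 27.6% and 32.1% of all probe sets. In the order of means, 188, 28 and 1 dpn and then 94 dpc, only the neighbours 28 and 1 dpn did not pass.

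Blood cell markers were also lower at 1 dpn than at 94 dpc. Of 16 listed erythroid markers 8 were on the array, and their summed intensity was 1535 to 5322 at 1 dpn against 10580 to 46260 at 94 dpc, when all 8 exceeded the array median in at least 50% of the animals. At 1 dpn KLF1, RHCE and TFRC no longer did. The 8 measured of 11 neutrophil and myeloid markers summed to 1505 to 14720 at 1 dpn and 11580 to 34600 at 94 dpc, and 5 of the 8 passed the same criterion at 1 dpn and 7 at 94 dpc. Among the fetuses the correlation of MYC with the erythroid marker mean was 0.107 and with the myeloid one 0.117 (permutation test, n = 15, adjusted p = 0.945 each). The part of these cells in the fall of MYC was not tested.

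GADD45B had its lowest mean in the newborn piglet. Its lowest, median and highest levels were 6.88, 8.17 and 9.32 in the fetuses, 7.04, 7.78 and 9.04 in the newborn piglets, 8.12, 8.52 and 8.94 in the pigs of 28 dpn, and 7.83, 8.32 and 8.96 in those of 188 dpn, so that the stages overlapped throughout. Means were 8.24 ± 0.70, 7.81 ± 0.54, 8.52 ± 0.25 and 8.34 ± 0.38 (SD, n = 15, 15, 14 and 16). The rise of 0.72 ± 0.15 in period II passed the test (adjusted p = 0.00015), while -0.43 ± 0.22 in period I (adjusted p = 0.080) and -0.19 ± 0.12 in period III (adjusted p = 0.21) did not. Period I crossed the threshold without fetus 3 or 8 or piglet 6 or 7 of 1 dpn and in the fit over 60 arrays, with limma adjusted p between 0.024 and 0.723 over its alternatives. GADD45B was 0.53 ± 0.16 higher at 188 than at 1 dpn (adjusted p = 0.0041), whereas 188 and 28 dpn did not pass against 94 dpc (0.10 ± 0.19 and 0.28 ± 0.19, adjusted p = 0.64 and 0.16). The second GADD45B probe set was dimmer, did not pass the filter in period I and showed no called difference over the 4 stages (F test, adjusted p = 0.87), whereas the brighter did (adjusted p = 0.0020). In the order of means, 1 dpn, 94 dpc, 188 dpn and 28 dpn, no pair of neighbours passed. Among the fetuses both probe sets of GADD45B correlated at 0.898.

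The fetuses spanned a wider range of FOS than the animals of each later stage. The intensity of the highest fetus, 14690, was 68.9-fold that of the lowest, 213, compared with 3.51-fold at 1 dpn, 4.28-fold at 28 dpn and 7.61-fold at 188 dpn. By SD at 94 dpc FOS ranked 2 of 4940 genes, after the detoxifying enzyme GSTA1 (2.02) and before CYP2E1 (1.59), and 10 of 11901 probe sets, where the median SD was 0.27. At 1, 28 and 188 dpn it ranked 850 of 5038, 388 of 5148 and 106 of 5090 genes. GADD45B and EGR1 ranked 82 and 79 and MYC 393 at 94 dpc.

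Fetuses and newborn piglets had been selected for extreme weights and the older pigs had not, and weight was not in the labels, so the wider fetal range against 28 and 188 dpn cannot be told apart from that selection.

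The mean distance of a FOS level from its stage median was 0.343 at 1 dpn, 0.420 at 28 dpn and 0.598 at 188 dpn, each against 1.52 at 94 dpc, differences of -1.18 ± 0.29, -1.102 ± 0.303 and -0.92 ± 0.30 on the log2 scale (SE). In the fit across all probe sets none passed (limma, adjusted p = 0.093, 0.089 and 0.12), and at that threshold 0.00783%, 0.196% and 0.262% of all probe sets were called narrower after birth. The permutation test of the FOS values alone gave two-sided p = 0.00016, 0.00038 and 0.0045 for the same 3 comparisons. Without fetus 1, 2, 3, 8, 10 or 14 the comparison at 28 dpn passed the adjusted threshold, with adjusted p between 0.0372 and 0.178 over all its alternatives. GADD45B was closer to its median by 0.33 ± 0.12 at 28 dpn than at 94 dpc (adjusted p = 0.20, permutation p = 0.0093). For EGR1 and MYC all adjusted p-values for spread were at least 0.30, and the EGR1 and MYC piglets of 1 dpn had larger SDs than the fetuses.

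In the fetuses the pairs among FOS, MYC and GADD45B passed the test, and the pairs with EGR1 did not. FOS correlated with MYC at r = 0.80 (Spearman's rho = 0.721) and with GADD45B at r = 0.785 (rho = 0.743), and MYC with GADD45B at r = 0.710 (rho = 0.814), each over 15 fetuses (permutation test, two-sided, p = 0.00027, 0.00049 and 0.0027, adjusted over the 24 correlations computed p = 0.0059, 0.0059 and 0.013, and for rho p = 0.0032, 0.0018 and 0.00041, adjusted p = 0.0155, 0.0143 and 0.0095). Without the 2 fetuses farthest from the median of the first gene r was 0.666, 0.691 and 0.679. EGR1 correlated with FOS at 0.351, with MYC at 0.185 and with GADD45B at 0.034 (rho 0.286, 0.096 and 0.036), and none of these passed (adjusted p = 0.343, 0.630 and 0.905). Whether the pairs with EGR1 differed from those without it was not tested. In the fit across all 11900 other probe sets with FOS as covariate, MYC and GADD45B passed (limma, adjusted p = 0.039 and 0.034), as did 0.286% of all probe sets in the positive direction. GADD45B did not pass with MYC as covariate (adjusted p = 0.18).

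**Figure D3:**
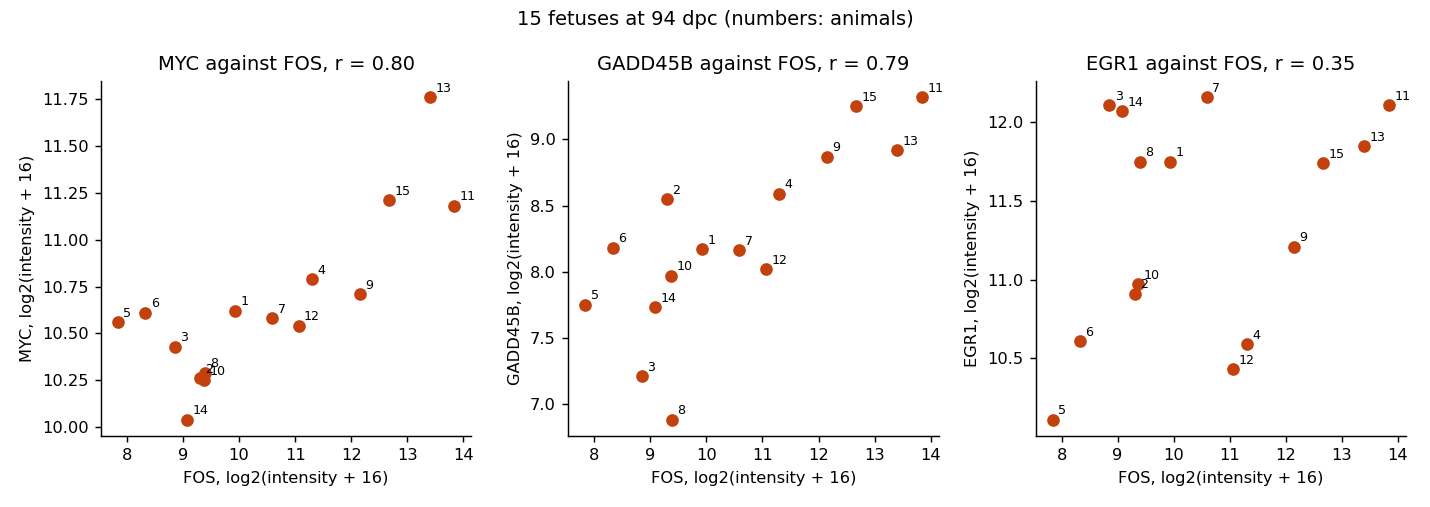
MYC, GADD45B and EGR1 against FOS in the 15 fetuses of 94 dpc, all as log2(intensity + 16), with points numbered by animal. Fetuses 11, 13, 15 and 9 are highest in FOS and in GADD45B, whereas EGR1 of these 4 is between 11.21 and 12.11, within the range of the others.

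The same few fetuses stood high in several of these genes. Fetuses 11, 13, 15 and 9 had FOS levels of 13.84, 13.40, 12.67 and 12.15, the other 11 fetuses 11.30 or less. The same 4 ranked 1 to 4 for GADD45B, with 9.32, 8.92, 9.25 and 8.87, and held ranks 3, 1, 2 and 5 for MYC. DUSP1, RGS2, SGK1 and GADD45G were picked for a high r with FOS or GADD45B, so that sharing the top fetuses is in part built in. The same 4 fetuses were the top 4 for DUSP1, a phosphatase that switches off MAP kinases, for RGS2, a regulator of G protein signalling, for SGK1, a stress-induced kinase, and for GADD45G, the gamma member of the GADD45 family. Fetuses 11, 13, 15 and 9 ranked 2, 1, 5 and 3 for CREM, 2, 1, 3 and 6 for JUN and 1, 2, 5 and 3 for ATF3. For EGR1 they ranked 2, 5, 8 and 9. Fetuses 3 and 14, with low FOS levels of 8.85 and 9.08, were 3 and 4 for EGR1. Of the 4 genes none had a gap between neighbouring fetuses that split the fetal values into separate clusters.

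After birth pairs with EGR1 passed at 1 and 188 dpn, and FOS with GADD45B, which had passed in the fetuses, passed at 28 dpn. At 1 dpn EGR1 correlated with FOS at r = 0.673 (rho 0.525) and with MYC at r = 0.711 (rho 0.782; permutation test, n = 15, p = 0.0066 and 0.0027, adjusted p = 0.026 and 0.013, for rho adjusted p = 0.142 and 0.0095). Both rested in part on piglet 2, without which r was 0.462 and 0.604 (permutation test, adjusted p = 0.252 and 0.0692). Over all alternatives the adjusted p was 0.00416 to 0.252 and 0.00324 to 0.425, and the third EGR1 probe set correlated with MYC at r = 0.307. At 28 dpn FOS and GADD45B correlated at r = 0.672 (rho 0.609, adjusted p = 0.028 and for rho 0.094, permutation test, n = 14), and leaving out animal 2, 5, 10 or 11 each ended the call, r then being as low as 0.551, as did leaving out the 2 farthest animals (r = 0.467). Both genes also went with the stellate cell and fibroblast marker mean at 28 dpn, FOS at r = 0.603 and GADD45B at 0.617 (rho 0.464 and 0.613, permutation test, n = 14, p = 0.024 and 0.017, adjusted over 176 relations p = 0.517 and 0.494), with 0.269 and 0.339 without the 2 farthest pigs. Of these markers 11 of 12 were on the array, their summed intensity was 14450 to 38660, and COL3A1 and LUM were below the array median in most of these pigs. Their part in the correlation was not tested. At 188 dpn FOS and EGR1 correlated at r = 0.751 (rho 0.724, permutation p = 0.0011 and 0.0026, adjusted p = 0.0091 and 0.0155) and at 0.689 without the 2 farthest pigs. The remaining 17 of the 24 correlations did not pass.

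**Figure D4:**
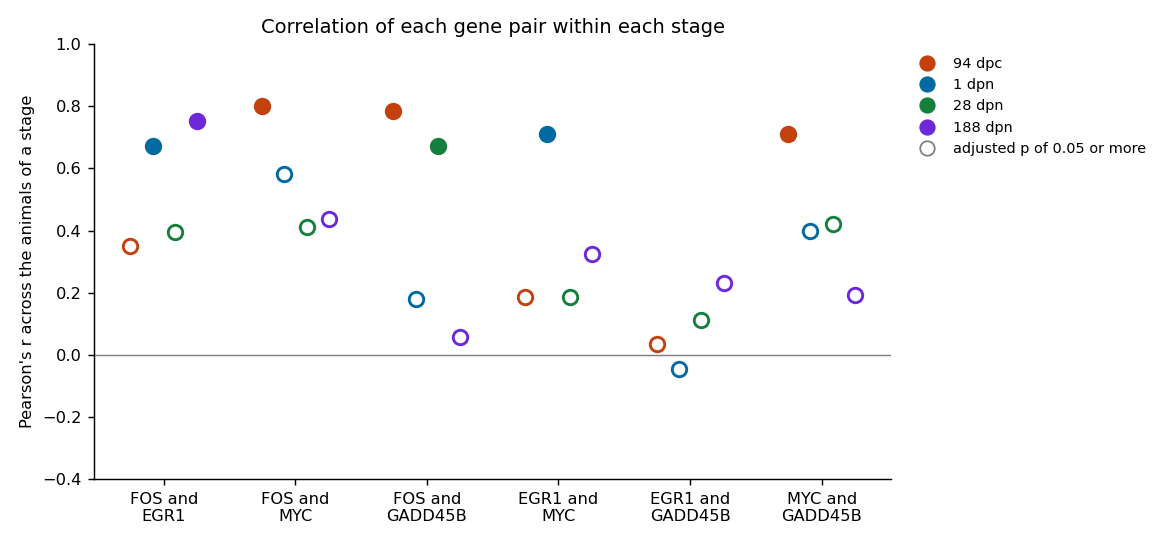
Pearson's r of each pair of genes across the animals of a stage, with filled points for an adjusted p below 0.05 (permutation test, adjusted over 24 correlations). The 3 pairs among FOS, MYC and GADD45B are filled at 94 dpc, where the 3 pairs with EGR1 are open.

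Correlations that passed in a single stage were not shown to differ between stages. Of 18 differences from 94 dpc, each tested by permuting the stage of animals standardized within their stage, 0 passed and 2 had an unadjusted p below 0.05. These were FOS with GADD45B at 1 dpn, 0.181 against 0.785 at 94 dpc (p = 0.023, adjusted p = 0.271), and at 188 dpn, 0.058 against 0.785 (p = 0.030, adjusted p = 0.271). For FOS with EGR1, r was 0.751 at 188 dpn and 0.351 at 94 dpc (permutation p = 0.141, adjusted p = 0.373).

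The transcripts that varied most like FOS among the fetuses included many early-response genes. Of single-symbol genes the 10 with the highest r were RGS2 (0.937), the kinase SGK1 (0.931), DUSP1 (0.908), the antiproliferative BTG2 (0.897), the messenger-destabilizing ZFP36 (0.892), tissue factor F3 (0.890), the cAMP-responsive factor CREM (0.888), the Notch target HES1 (0.870), CEBPB (0.866) and JUN (0.865), and all passed (limma with FOS as covariate, n = 15, adjusted p of at most 0.0023). With FOS 34 of 11900 probe sets varied in the same direction and 5 (0.042%) in the opposite one. DUSP1 differed between fetuses from 10.56 to 13.74 and RGS2 from 7.26 to 10.16. At 1, 28 and 188 dpn 0 probe sets passed with FOS as covariate, where the SD of FOS was 0.50, 0.55 and 0.77.

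DUSP1 was among the 5 nearest genes of both MYC and GADD45B in the fetuses. Nearest to MYC were SGK1 (0.922), ZFP36 (0.864), DUSP1 (0.862), NFIL3 (0.847) and RGS2 (0.838), all passed (adjusted p of at most 0.0112). Nearest to GADD45B were GADD45G (0.938), the antiproliferative TOB1 (0.937), the small GTPase RHOU (0.925), CEBPB (0.922) and DUSP1 (0.907), all passed (adjusted p of at most 0.00341). For EGR1 the highest were the early-response gene IER2 (0.826), TIMM44 (0.822), SELENOF (0.80), CIAPIN1 (0.740) and BAG5 (0.735), none of which passed (adjusted p of at least 0.291), and the only 2 probe sets that passed with EGR1 (0.0168%) were its own. In numbers, 25 probe sets (0.21%) varied with MYC and 27 (0.227%) with GADD45B.

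Across the listed early-response genes measured at 94 dpc, 41 besides the 4 genes, 18 had an r with FOS above 0.5 and their median r was 0.364, compared with 2.85% and a median of -0.025 over all probe sets. With EGR1 the count was 5 and the median 0.154, compared with 1.93% and -0.006. IER2 (0.826), DUSP6 (0.727) and IER5 (0.573) had a higher r with EGR1 than with FOS (0.539, 0.368 and 0.266), and none of them passed with EGR1 as covariate. IER3, RGS2, DUSP1 and ZFP36 of the same list had a higher r with FOS (0.672, 0.937, 0.908 and 0.892) than with EGR1 (0.31, 0.367, 0.161 and 0.301). These differences in r were not tested. NFKBIA, an inhibitor of NF-kappaB, and MXD4, a MAX partner that opposes MYC, had a negative r with FOS (-0.603 and -0.630). The lowest r of any single-symbol gene with FOS, -0.748, did not pass (limma with FOS as covariate, adjusted p = 0.138). At 1, 28 and 188 dpn 6 of 39, 4 of 41 and 8 of 41 listed genes had an r above 0.5 with FOS, where 5.67%, 6.01% and 9.30% of all probe sets did. These counts are a description of these animals, and the genes are not independent of one another.

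**Figure D5:**
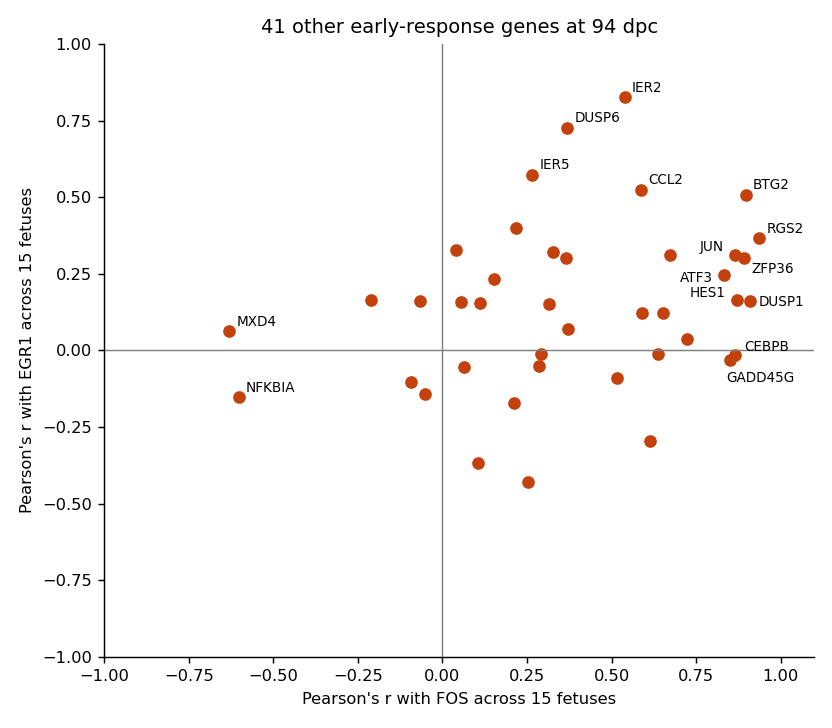
Pearson's r with FOS (horizontal) and with EGR1 (vertical) of 41 other listed genes across the 15 fetuses, each point 1 gene. The title calls all of them early-response genes, but the MYC and MAX network and growth arrest lists are included. RGS2, DUSP1 and ZFP36 lie far to the right (0.937, 0.908 and 0.892), and IER2 and DUSP6 lie highest (0.826 and 0.727).

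Marker lists of liver cell types and array controls were set against each gene in each stage, 176 relations in all, and 0 passed after adjustment while 11 had an unadjusted p below 0.05. The smallest unadjusted p was that of GADD45B with the hepatocyte marker mean at 1 dpn (r = 0.74, rho 0.654, permutation p = 0.0019, adjusted p = 0.248). Before adjustment FOS and GADD45B of the fetuses correlated with the mean of the stellate cell and fibroblast markers (r = 0.697 and 0.621, rho 0.696 and 0.611, permutation p = 0.0039 and 0.014, adjusted p = 0.248 and 0.483), and r was 0.564 and 0.369 without the 2 fetuses farthest from the median. On the array were 11 of 12 of these markers, with a summed intensity of 19380 to 34310 over the fetuses. LUM, DES and RGS5 were below the array median in most of them. The actin ratio correlated with FOS at 0.119 among the fetuses (adjusted p = 0.945). The part of these cells in the spread of FOS was not tested.

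Over all 60 animals, where stage differences and variation within stages both enter, the genes nearest to FOS were DUSP1 (r = 0.775), JUN (0.710), ZFP36 (0.708), RGS2 (0.658) and GADD45G (0.585). Nearest to GADD45B were DUSP1 (0.696), the small GTPase RHOB (0.683), RGS2 (0.683), ZFP36 (0.591) and the matrix protein gene CYR61 (0.583). MYC went with HNRNPA1 (0.906), CHTOP (0.895), RPL5 (0.870), TERF2IP (0.866) and NOP56 (0.862), of which HNRNPA1 and CHTOP bind messenger RNA and RPL5 and NOP56 belong to ribosome formation. EGR1 went with COPG2 (0.787), PSAT1 (0.732), ABLIM1 (0.725), PPP6C (0.719) and RASSF1 (0.713). DUSP1, ZFP36 and RGS2 stood among the 5 nearest of both FOS and GADD45B.

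The partners of these genes were counted from lists of 209 genes, 120 of them on the array. In period I 22 of 97 tested rose and 43 fell, in period II 31 of 97 rose and 32 fell, and in period III 13 of 94 rose and 38 fell, shares to be read against those of all probe sets given above. With median centring 26 fell in period I, and in period II 51 rose and 17 fell. Of the AP-1 and ATF factors, JUN and ATF3 fell by 0.66 and 1.13 in period I. ATF3 passed the filter there through the fetuses alone, which favours a fall. JUN and FOSL2 rose by 0.48 and 0.63 in period II, and FOSL2 rose by 0.44 in period III. In period II FOSL2 passed the filter through the later stage alone, which favours a rise. The genes of the EGR and NAB list were not tested, since the only member on the array did not pass the filter.

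RGS2 and DUSP1 fell in period I and rose in period II. RGS2 fell by 1.13 ± 0.31 in period I and rose by 1.77 ± 0.23 in period II, while DUSP1 fell by 0.87 ± 0.26 and rose by 0.68 ± 0.14. RGS2 passed the filter in period I through the fetuses alone and in period II through the pigs of 28 dpn alone. Both of its directions were favoured by this. DUSP6, the ERK phosphatase, rose in both, by 0.53 ± 0.15 and 0.94 ± 0.19, and NFKBIA, the inhibitor of NF-kappaB, by 0.47 ± 0.13 and 1.40 ± 0.11. IER2 rose by 1.12 ± 0.16 in period II. Of 9 tested genes of feedback and messenger decay, 3 rose and 5 fell in period I, where 23.9% of all probe sets rose and 41.1% fell. In period III 2 rose and 4 fell, where 15.5% of all probe sets rose and 24.1% fell. In period II 7 of the 9 rose and 0 fell, against 28.5% and 39% of all probe sets, and with median centring 9 rose, when 65.9% of all called probe sets were risers. Of the 8 that passed the filter in both stages of period II, 6 rose. Of 12 other early-response transcription factors 4 rose and 6 fell in period I, with HES1 (-1.90 ± 0.21) and KLF10 (-1.77 ± 0.14) falling and CEBPD (1.43 ± 0.15), KLF9 (1.40 ± 0.21) and the interferon-responsive IRF1 (1.40 ± 0.12) rising. In period II 7 of these 12 rose and 0 fell, and 10 rose with median centring, CEBPD by 1.18 ± 0.17 and ID3 by 1.13 ± 0.09. In period III 5 rose and 3 fell, and PER1 of the circadian clock rose by 1.09 ± 0.13. Among secreted and adhesion genes CYR61 fell by 1.22 ± 0.29, THBS1 by 2.03 ± 0.20 and IL1B by 0.62 ± 0.19 in period I, while the chemokine CCL2 rose by 1.47 ± 0.20.

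In the GADD45 family the alpha and gamma members fell in period I. GADD45A fell by 1.04 ± 0.13 (adjusted p = 1.9e-08) and GADD45G by 1.70 ± 0.36 (adjusted p = 0.00012). Of the 9 tested growth arrest genes 2 rose and 5 fell in period I, where 23.9% of all probe sets rose and 41.1% fell. BTG1 fell by 1.04 ± 0.11 in period I and rose by 1.07 ± 0.10 in period II. BTG2 ran the other way, with 0.66 ± 0.21 and -1.49 ± 0.17, and rose by 0.83 ± 0.17 in period III. In the ERK and serum response pathway upstream of FOS and EGR1, 4 of 13 tested genes rose and 4 fell in period I, 5 rose and 4 fell in period II, and 1 of 12 rose and 4 fell in period III. Of all probe sets 23.9%, 28.5% and 15.5% rose in periods I, II and III, and 41.1%, 39% and 24.1% fell. GRB2, the adaptor of growth factor receptors, rose 2.02-fold in period I, and the receptor gene EGFR 1.92-fold. In the same period MAP2K4 fell 1.86-fold and RPS6KA3 1.74-fold.

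The genes that MYC is known to drive moved in both directions. Of 25 tested, 6 rose and 12 fell in period I, 3 of 24 rose and 11 fell in period II, and 2 of 23 rose and 7 fell in period III. The counts that fell lie near the shares of all probe sets, of which 41.1%, 39% and 24.1% fell in the 3 periods. Of all probe sets 23.9%, 28.5% and 15.5% rose, and in periods II and III the counts that rose lie below these shares. With median centring 7 rose and 6 fell in period I, 8 rose and 6 fell in period II, and 4 rose and 7 fell in period III, so the direction of the list turned with the scaling in periods I and II. In period II NOP58 and GNL3 of the nucleolus fell 2.83-fold and 2.64-fold. LDHA, lactate dehydrogenase A, fell by 0.86 ± 0.14 in period III. The nucleolar NPM1 fell by 1.22 ± 0.08 and 1.15 ± 0.12 in periods I and II, and NOP56 by 0.71 ± 0.10 and 0.50 ± 0.10 in periods I and III. TFRC, which is also an erythroid marker, fell by 2.20 ± 0.45 in period I, where it passed the filter through the fetuses alone, which favours a fall. The spermidine synthase SRM rose by 1.14 ± 0.13 in period I and fell by 0.91 ± 0.16 in period II and 0.74 ± 0.13 in period III, ending at -0.52 ± 0.10 at 188 dpn relative to 94 dpc. The folate enzyme SHMT1 rose by 1.52 ± 0.14 and 1.13 ± 0.10 in periods II and III. At 188 dpn, against 94 dpc, 5 of 25 were higher and 18 lower, where 53.4% of all probe sets were lower, and the median change was -0.58, compared with -0.34 over all probe sets.

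Of the cell division genes, RRM2, the small subunit of ribonucleotide reductase, fell by 1.42 ± 0.30 in period II and by 2.85 ± 0.25 in period III, when cyclin B1, CCNB1, fell by 2.12 ± 0.19. CCNB1 ended at 6.22 and RRM2 at 6.62 at 188 dpn, where the highest Tag control averaged 5.83. In period I 1 of 16 tested genes rose and 4 fell, and 0 fell with median centring. In period II 0 rose and 13 of 16 fell, and 8 fell with median centring. Of all probe sets 23.9%, 28.5% and 15.5% rose in periods I, II and III with the deposited scaling, and 41.1%, 39% and 24.1% fell. All 15 of the 17 on the array that were tested fell in period III, but 10 of the 15 had passed the filter through the pigs of 28 dpn alone, which favours a fall, so this count supports nothing by itself. All 5 that passed in both stages fell.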

How the data were processed

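Liver RNA was hybridized to Affymetrix Porcine Genome arrays. The authors deposited linear intensity values, 1 per probe set, made with GCOS 1.1.1 per the labels. The mean after trimming 2% at each end was 499.7 to 499.8 on every array. Of 24123 probe sets 124 controls were removed. A comparison used the probe sets that exceeded the array median in 50% or more of the animals of either stage. Symbols came from the platform annotation (10069 probe sets with 1 symbol, 6765 genes). Two-sided limma 3.58.1 models (R 4.3.3) were fitted to log2(intensity + 16) of the stages compared and to distances from the stage median, with Benjamini-Hochberg adjustment over all probe sets tested. Correlations were tested with 100000 permutations (scipy 1.17.1). Alternatives were pseudocounts 1 and 64, median centring, quantile normalization, no filter, other models (actin and GAPDH covariates, the second added after the data were seen), other probe sets and omission of each animal. On simulated data 97% of 200 probe sets made 4-fold wider at 94 dpc than at 1 dpn were recovered unadjusted and 18% after adjustment over 12771. Named genes were taken from the 4 with the largest called change per list, period and direction, the 5 with the highest r over 60 animals and the 5 (10 for FOS) with the highest r within 94 dpc. DUSP1 in period II, and DUSP6, IER3, IER5, NFKBIA, MXD4 and ATF3 in the fetal comparisons, were named after their values were seen. Members and lists were chosen with earlier results of these data known.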

Additional observations from a re-analysis of the deposited data

How the results depend on the processing

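No paired analysis was possible because replicate numbers were given in accession order and pair no animals across stages. Of the levels, the falls of EGR1 in period I and of MYC in period III kept direction and call under every alternative run. That of MYC in period I lost its call only with the GAPDH covariate (-1.45), added after the data were seen, and otherwise kept both. The single fit over 60 arrays moved FOS in periods I, II and III (-0.96, 0.53 and 0.65) and GADD45B in period I (-0.43) across the threshold, and FOS in period III (0.65) lost its call with no filter. The actin covariate ended the calls of FOS in periods II and III (0.87 and 0.67), EGR1 in period II (1.86) and GADD45B in period II (0.41). Signs turned for MYC in period II with median centring (0.19) and quantile normalization (0.013), for EGR1 with the second probe set in period II (-0.86) and the third in period III (-0.12), and for GADD45B with the second in periods II and III (-0.032 and 0.16). Median centring changed the counts of all probe sets in period II to 5932 that rose and 3064 that fell, and of listed genes to 26 that fell in period I and 51 that rose and 17 that fell in period II. With each animal left out, FOS ranged from -1.15 to -0.72, from 0.45 to 0.63 and from 0.55 to 0.75 in periods I to III, and GADD45B in period I from -0.53 to -0.35.

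For the spread, the permutation test called FOS at 1, 28 and 188 dpn (-1.18, -1.10 and -0.92) and GADD45B at 28 dpn (-0.33). EGR1 at 188 dpn turned to -0.064 with quantile normalization. With animals left out, FOS at 28 dpn ranged from -1.21 to -0.93, EGR1 at 188 dpn from -0.037 to 0.15 and MYC at 188 dpn from -0.062 to 0.037.

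The 3 fetal correlations among FOS, MYC and GADD45B passed under every scaling and with any fetus left out, and MYC with GADD45B lost its call with the second GADD45B probe set (0.593), which gave 0.731 at 1 dpn, past the threshold. Without the 2 farthest animals FOS with EGR1 at 1 dpn (0.542) and FOS with GADD45B at 28 dpn (0.467) lost their calls, and signs turned for FOS with GADD45B at 1 dpn (-0.139), FOS with MYC at 28 dpn (-0.129), EGR1 with MYC at 28 dpn (-0.127) and EGR1 with GADD45B at 94 dpc (-0.135). FOS with GADD45B at 28 dpn lost its call with quantile normalization (0.589) and the second GADD45B probe set (0.095), and EGR1 with MYC at 1 dpn with the third EGR1 probe set (0.307). Other probe sets turned the sign of EGR1 with GADD45B at 1 dpn (0.408), 188 dpn (-0.195 and -0.142) and 94 dpc (-0.174) and of FOS with GADD45B at 188 dpn (-0.248). With animals left out the ranges were 0.462 to 0.765 and 0.604 to 0.817 for EGR1 with FOS and with MYC at 1 dpn, 0.551 to 0.816 for FOS with GADD45B at 28 dpn, 0.411 to 0.717 for FOS with MYC at 1 dpn, -0.144 to 0.258 for EGR1 with MYC at 28 dpn, and -0.135 to 0.284 for FOS with GADD45B at 188 dpn. For EGR1 with GADD45B they were -0.109 to 0.176 in fetuses, -0.134 to 0.154 in newborn piglets and -0.072 to 0.307 at 28 dpn. The cause of these changes was not tested.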
